A study of Mus musculus with 8 samples.

Results

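Cells of an acute undifferentiated leukaemia (AUL) were set against normal T cells, gene by gene, to see which parts of the T-cell programme a leukaemia sorted as CD3-negative had and which it lacked. All genes with an FPKM of at least 1 in either library were taken, which gave 10279 of the 16434 genes in the deposited table. FPKM is the number of sequenced fragments scaled by gene length and by library total. The AUL arose in mice of a study of N-Myc overexpression, and its cells were sorted from bone marrow as negative for B220, CD3, Mac1 and Gr1 and positive for green fluorescent protein (GFP). The T cells were sorted as CD3+ from normal bone marrow. Both groups are labelled as C57BL/6 mice of 8-10 weeks, with no further genotype, agent or allele. How N-Myc was introduced, what drives it and whether animals were pooled are not given in the sources used here. Each group had 1 library, so no difference below has a replicate check or a p-value, and the intervals cover counting error only. The AUL library held 33818615 fragments and the T-cell library 37000630, against 39886613 to 52280282 in the other 6 libraries of the series. For a gene of median length, an FPKM of 1 rested on 52.8 fragments in AUL (95% Poisson interval 0.752 to 1.31) and 57.8 in T cells.

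The receptor of a T cell is a pair of variable chains, alpha with beta or gamma with delta, held in a complex with the CD3 chains, and the whole complex has to assemble to be displayed at the cell surface. The kinases Lck and Zap70 and the adaptor Lat carry its signal, and the coreceptors CD4 and CD8 bind MHC molecules beside it. Developing T cells take on this machinery under Notch signals and the transcription factors Tcf7, Gata3 and Bcl11b, and mature naive cells then add receptors for homing and for the survival cytokine interleukin-7.

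In the AUL library some genes of the T-cell machinery were near the level of normal T cells and others were far below it. The kinase gene Lck had an FPKM of 626 in AUL and 610.0 in normal T cells, and the transcription factor gene Tcf7 had 523 and 449.7. The CD3 chain gene Cd3e had 57.4 and 221. Coreceptors, the interleukin-7 receptor, homing receptors and the chemokine gene Ccl5 stood at the other end: Cd8b1 had 0.319 in AUL and 268 in T cells, and Ccl5 had 2.22 and 1236. Over all 10279 genes, 2022 were at least 2-fold higher in AUL on the log2(FPKM + 1) scale (19.7%), 2651 were at least 2-fold lower (25.8%) and 5606 lay within 2-fold (54.5%). The median log2 difference, AUL minus T cells, was -0.15. "Higher" and "lower" below mean past that 2-fold line, and each log2 difference is on the log2(FPKM + 1) scale, which understates the change of genes at low levels. Folds, by contrast, are ratios of the FPKM values themselves.

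**Figure D1:**
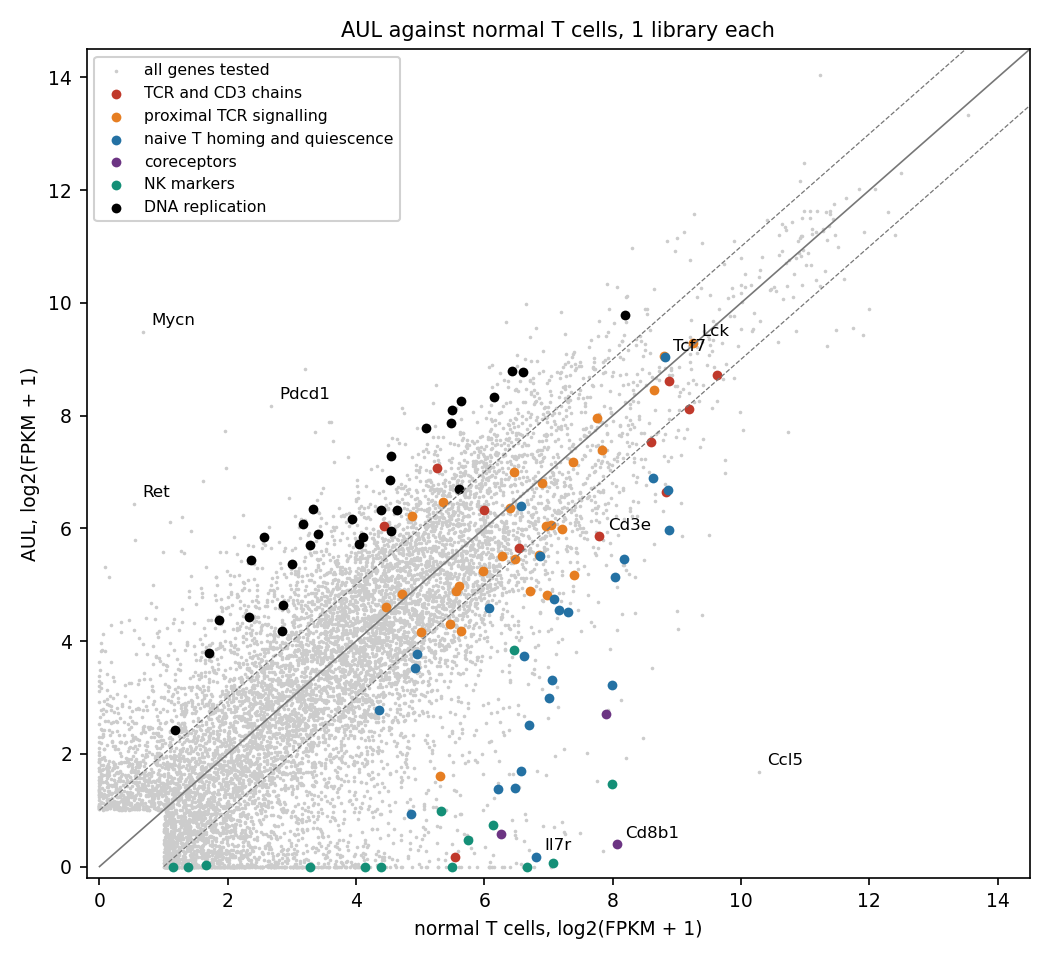
Level of each gene in normal T cells (x axis) and in AUL (y axis), both as log2(FPKM + 1), with 1 library on each axis. Grey points are the 10279 genes tested, coloured points are 6 gene lists, the solid line marks equal levels and the dashed lines mark a 2-fold difference. Of 29 proximal signalling genes, 18 lie within 2-fold, 9 are lower and 2 are higher. Coreceptors and natural killer markers lie near the bottom, and all 30 replication genes above the upper dashed line.

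Both libraries were checked against the markers of their labels. The T-cell library had all of the receptor and CD3 genes at high levels, with Cd3d at 584 and Thy1 at 1158. It also held RNA of marker genes of other cell types. The summed FPKM of 15 B-cell markers was 1360 in the T-cell library and 34.1 in AUL, against 9925 in the B-cell library. Summed basophil and mast cell markers (9 listed) were 597 and 4.91, and summed natural killer (NK) markers (14 listed) were 829 and 17.2. The NK sum was 185 in the lineage-negative library. In the T-cell library 8 of the 14 NK genes had at least 4 times the level of each other normal library. Whether T cells or NK cells made that RNA was not tested. Neutrophil markers, 15 in all, summed to 1382 in the T-cell library and 2460 in AUL, against 195328 in the myeloid library. In the AUL library the antigens of the gate had these levels: Cd3e 57.4, Itgam (Mac1) 3.06, Ly6g (part of Gr1) 5.92 and Ptprc, whose B220 form cannot be read from a gene total, 466. The label of a CD3-negative gate thus stands beside CD3 transcripts at 57.4 to 276 for the 3 genes Cd3e, Cd3g and Cd3d, which in the normal lineage-negative library had 1.06, 3.84 and 6.77. How far RNA of other cells in the T-cell library moved each result was not tested, and fewer cells of a type cannot be told apart from less RNA per cell.

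Of the constant receptor and CD3 genes, 11 were in the table, and 4 of them lay within 2-fold of the T-cell level, beside 54.5% of all genes tested. The CD3 signalling chain Cd247 had 49.2 in AUL and 92.3 in T cells. The beta constant genes Trbc1 (391.97 and 468) and Trbc2 (423 and 787) are near-identical copies whose reads may be split between them. The gamma constant gene Tcrg-C2 had 79.03 and 62.9. These 4 genes were therefore transcribed in AUL at levels close to those of T cells.

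Of the other 7, 5 were lower in AUL and 2 were higher, beside 25.8% and 19.7% of all genes tested. Trac, the alpha constant gene (chromosome 14, 54220521 to 54224206, mm10), had 98.6 against 456, a log2 difference of -2.20. Cd3e (chromosome 9, 44998740 to 45009627) was 3.85-fold lower (95% counting interval 3.68 to 4.02). Its neighbours Cd3g (183 against 388) and Cd3d (276 against 584) each had a log2 difference of -1.08, just past the 2-fold line. The widest gap was in the gamma constant gene Tcrg-C1, at 0.128 and 45.7. Higher in AUL were Tcrg-C4, another gamma constant gene (134 against 37.5, 1.81), and Trdc, the delta constant gene (65.2 against 20.7, 1.61). The T-ALL library of the series had 198 of Tcrg-C4 and 0 of Trdc. The AUL thus held constant-gene transcripts of all 4 receptor chains, with those of alpha below and those of delta above the T-cell level.

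A normal T-cell population carries many rearranged segments, and a clone carries few. Of 70 alpha variable segments in the table, 62 had an FPKM of at least 1 in T cells and 4 had in AUL. In AUL 1 segment, Trav21-dv12 (chromosome 14, 53875984 to 53876752, mm10), had 453 and made up 97.5% of the summed FPKM of alpha segments. It had 8.26 in T cells, where the summed level was 397 against 465 in AUL and the leading segment held 6.28%. The AML library of the series had 11.2 of the same segment and no other alpha segment at 1 or more. Trav21-dv12 is counted here with alpha, but it also carries a delta name, dv12. Alpha joining segments summed to 110 in AUL and 397 in T cells, and delta joining segments to 27.9 and 15.7. Which chain the Trav21-dv12 transcripts belong to was not tested.

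Beta variable segments were nearly absent from AUL. Among 22 in the table, 21 had an FPKM of at least 1 in T cells and 0 had in AUL. Their summed FPKM was 1085 in T cells and 0.504 in AUL, although the beta constant genes were near the T-cell level. By comparison, T-ALL had 473 in a single beta segment, Trbv12-1. Beta joining segments were present in AUL, with a summed FPKM of 1183 against 2054, led by Trbj2-6 at 423 (35.7% of the sum; 276 in T cells) and Trbj2-7 at 371 (367 in T cells). Joining segments are shorter than a sequencing read, and their FPKM is high for the fragments it rests on. In AUL, Trbj2-6 had 423 on 686 fragments, whereas Trav21-dv12 had 453 on 5519. Sums of joining segments are therefore not on the scale of variable or constant genes. The delta segment Trdv5 had 16.6 in AUL and 8.58 in T cells. It made up 94.6% of the summed FPKM of the 4 segments named Trdv in AUL. Segments that carry both an alpha and a delta name, such as Trav21-dv12 (453 in AUL), are not in that sum. Among gamma variable segments, Trgv2 had 46.1 in AUL and 61.6 in T cells, whereas Tcrg-V4 had 0 in AUL and 14.8 in T cells. Beta variable segments that are not in the table were not analysed here.

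**Figure D2:**
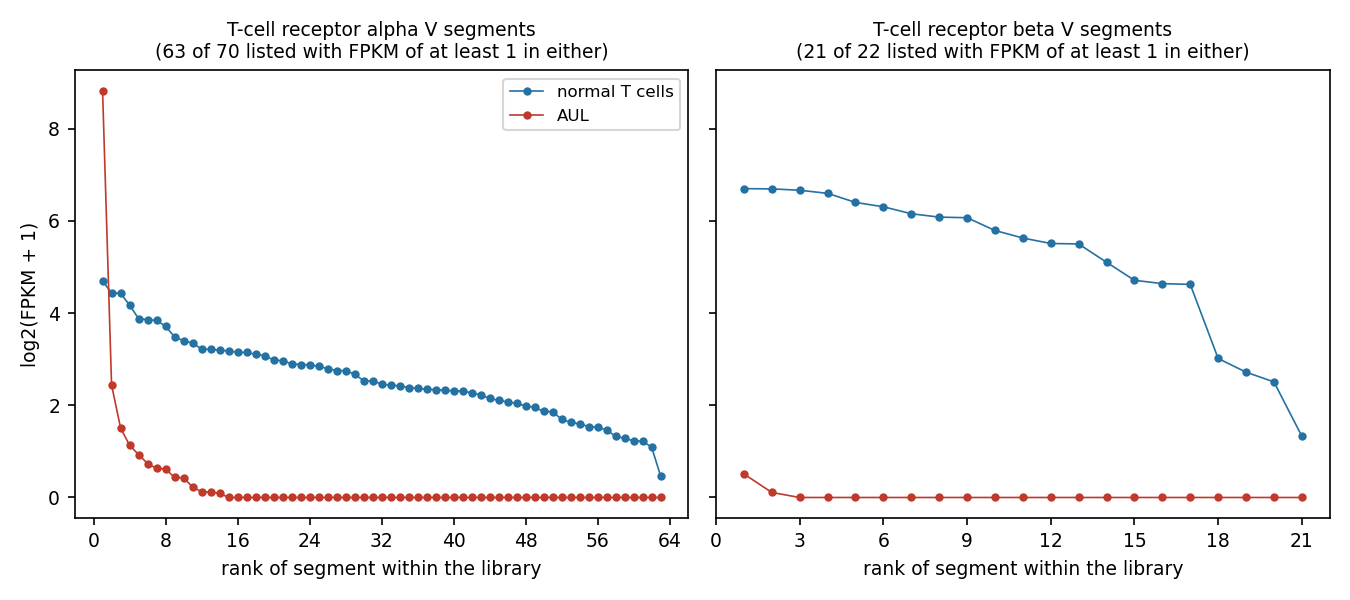
Level of each alpha (left) and beta (right) variable segment as log2(FPKM + 1), ranked from highest to lowest within each library, with AUL in red and normal T cells in blue. In AUL 1 segment counted with alpha, Trav21-dv12 at 453 FPKM, stands above all others and no beta segment reaches 1. That segment also carries a delta name. The T-cell curves fall gradually over 62 alpha and 21 beta segments.

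Of 29 measured genes of the signalling chain below the receptor, 18 lay within 2-fold of the T-cell level, 9 were lower and 2 were higher, with a list median of -0.67. Over all genes tested 54.5% lay within 2-fold, so this count is near the background. Lck, the kinase that starts the signal, had 626 and 610.0. Zap70, the kinase that binds the CD3 chains, had 247 and 215. Lat, the adaptor on which the signal assembles, had 352 and 397. Fyn, a kinase related to Lck, had 167 and 227, and the exchange factor Vav1 had 110.2 and 118. In the normal lineage-negative library Lck, Zap70 and Lat had 26.03, 10.2 and 20.2, so these AUL levels stood with T cells and not with the normal cells of the AUL gate.

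Themis, which sets signal strength in thymocytes, had 2.06 against 38.6 and was 18.8-fold lower (16.3 to 21.8). The protein kinase C gene Prkcq (27.1 against 124) and the Ras activator Rasgrp1 (28.5 against 103) were lower as well. Plcg1, the phospholipase they depend on, had 44.9 against 114, and the adaptor Lcp2 had 62.2 against 147. Sit1, Bcl10 and Lax1 were lower too, with log2 differences of -1.46, -1.16 and -1.03. Both higher members are small adaptors: Trat1, which binds the receptor complex, had 73.7 against 28.3 (1.35), and Sh2d1a, the adaptor of SLAM receptors, had 87.3 against 40.1 (1.10).

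Some transcription factors of the T lineage were near the T-cell level and others were lower. Of 31 measured, 15 lay within 2-fold, 14 were lower and 2 were higher (median -0.79). Over all genes tested 54.5% lay within 2-fold and 25.8% were lower, so the count within 2-fold is near the background. Tcf7 had 523 in AUL and 449.7 in T cells, and Bcl11b, which fixes the T-cell fate, had 35.2 and 59.7. Runx3, a factor of CD8 and cytotoxic cells, had 165 and 162, and the T-box factors Tbx21 and Eomes had 27.5 and 86.7 against 30.5 and 46.6. Gata3 was lower (21.7 against 51.5, -1.21), as was Lef1, the relative of Tcf7 (23.02 against 66.1, -1.48).

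Other factors of the list were lower by more. Satb1, a chromatin organiser, had 9.79 against 106 (-3.32), and Id2, an inhibitor of E proteins, had 12.9 against 170.3 (-3.62). Bach2, which restrains effector differentiation, had 4.15 against 44.2. Zfp683 (Hobit), a factor of resident memory cells, rested on 1 fragment in AUL and had 14.4 in T cells. Zbtb7b, the CD4-lineage factor, had 11.4 against 45.2. Id3, the other E-protein inhibitor of the list, was higher (107 against 46.8, 1.18), and so was Tox2 at low levels (4.56 against 0.899, 1.55). Id2 and Id3, which act on the same E proteins, therefore stood on opposite sides.

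Of 18 pan-T surface genes 13 were lower and none was higher (median -2.02), beside 25.8% lower over all genes tested. The 5 within 2-fold were Thy1, Cd5, Cd27, Ly9 and Cd28. Thy1, the classic surface marker of mouse T cells, had 719 in AUL and 1158 in T cells. Cd5, a brake on receptor signals, had 52.01 and 81.5, and the costimulatory receptors Cd27 and Cd28 had 156 and 37.3 against 231 and 70.2. Cd2, an adhesion receptor, was lower (122 against 319, -1.38), as were Cd7 (35.6 against 195, -2.42) and Cd6 (35.9 against 124, -1.76). Icos, an inducible costimulator, had 0.555 against 27.7. Ly6d had 0.477 against 88.3; it is also a B-lineage gene, and the B-cell RNA of the T-cell library stands beside its value.

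All 3 coreceptor genes were lower, beside 25.8% of all genes tested. Cd4 had 0.495 in AUL and 75.3 in T cells. Cd8a had 5.55 and 238, and Cd8b1 (chromosome 6, 71322788 to 71337494, mm10) had 0.319 and 268, 839-fold lower (516 to 1467). The AUL level of Cd8a rested on 504 fragments and that of Cd8b1 on 16, so the alpha chain was measured and the beta chain was close to the floor. In the lineage-negative library the 3 genes had 0.890, 0.603 and 0.788.

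**Figure D3:**
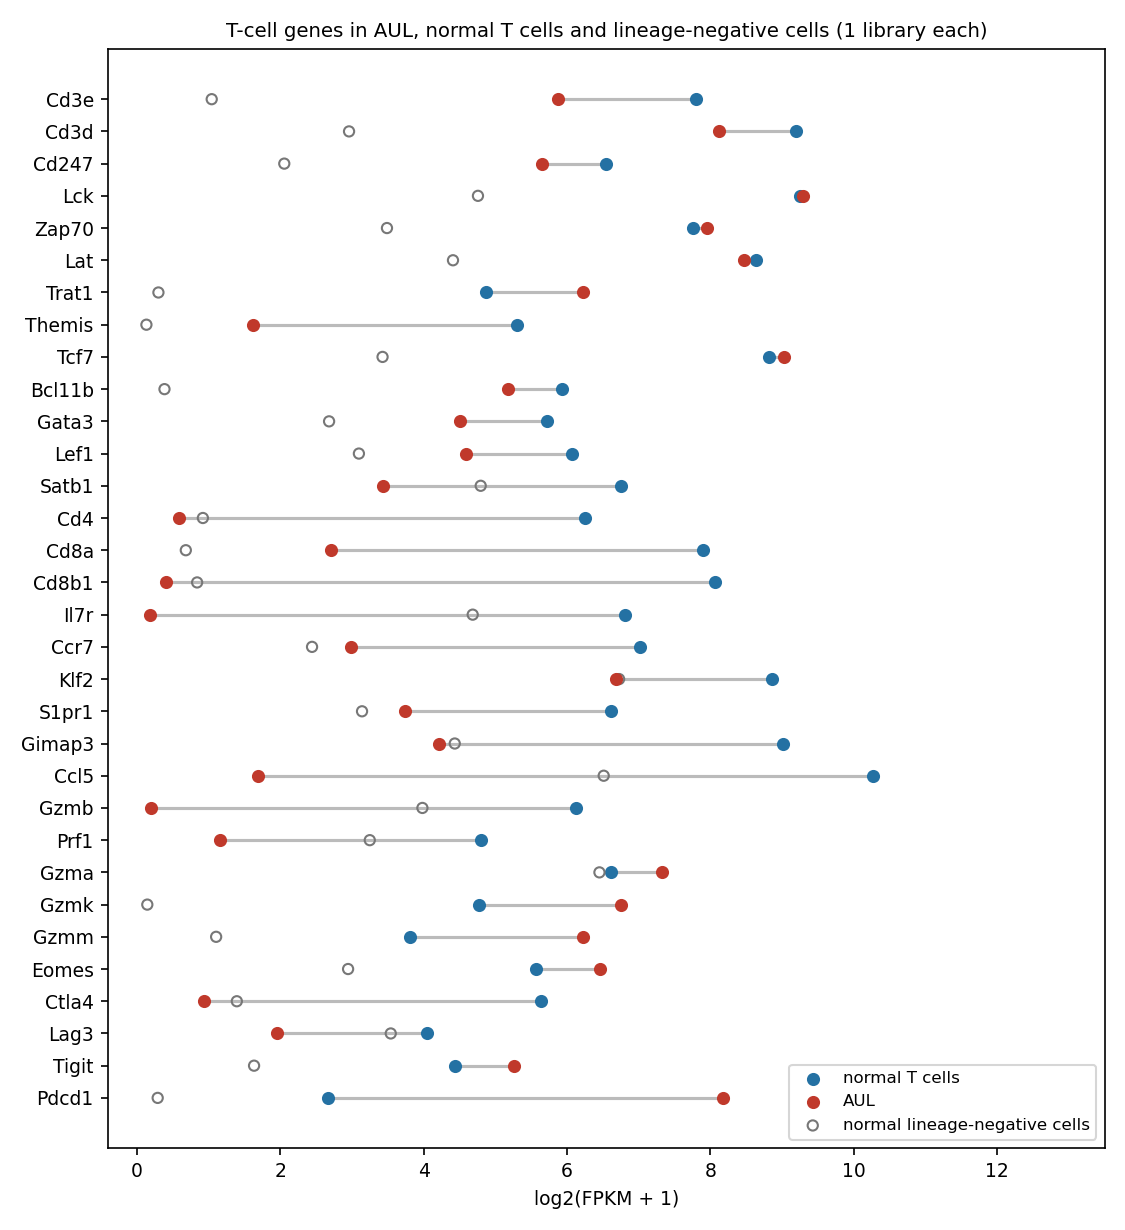
Levels of named T-cell genes as log2(FPKM + 1) in AUL (red), normal T cells (blue) and normal lineage-negative cells (open circles), 1 library each; the grey bar joins AUL and T cells. Lck, Zap70, Lat and Tcf7 overlap or nearly so, Cd8b1, Il7r and Gzmb lie far to the left in AUL, and Gzmk, Gzmm and Pdcd1 lie to the right of the T cells.

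Homing and quiescence genes of naive T cells were lower in AUL almost throughout. Of 25 measured, 23 were lower and none was higher (median -2.79), beside 25.8% lower over all genes tested. Tcf7 and the cytoskeletal gene Actn1 (83.6 against 94.1) were the 2 within 2-fold. Il7r, the receptor for interleukin-7, had 0.129 in AUL, which rested on 10 fragments, and 111 in T cells, 856-fold lower (455 to 1747). Ccr7, which guides cells into lymph nodes, had 6.92 against 128, and the egress receptor S1pr1 had 12.3 against 96.8. Klf2, the transcription factor that controls these homing receptors, had 101 against 463 (-2.18). The level of Klf2 in lineage-negative cells was 105, close to that of AUL.

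Genes that hold T cells at rest were low too. Btg1, an antiproliferative gene, had 8.28 against 253 (-4.77), and Slfn2, needed for T-cell quiescence, had 8.92 against 131 (-3.74). Dapl1, a marker of naive and memory T cells, had 1.63 against 87.6. Foxo1, the factor upstream of Klf2 and Il7r, had 5.86 against 19.6 (-1.59). All 8 members of the GIMAP family, GTPases that support lymphocyte survival, were lower (median -3.05), from Gimap3 (17.5 against 516, -4.81) to Gimap1 (70.7 against 172, -1.27). The share lower among all genes tested was 25.8%. GIMAP genes lie side by side and resemble each other, so reads may be shared between them.

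Of 28 cytotoxic effector and chemokine genes measured, 18 were lower, 8 within 2-fold and 2 higher (median -1.86). Shares over all genes tested were 25.8%, 54.5% and 19.7%. Ccl5 (chromosome 11, 83525778 to 83530518, mm10), a chemokine of effector and memory cells, had 2.22 against 1236 and was 557-fold lower (416 to 764). The log2(FPKM + 1) difference, -8.59, was the widest on the lower side on that scale, whereas other genes, such as Cd8b1, Il7r, Klra7 and Klrk1, had larger folds. Ccl3 (0.502 against 179) and Ccl4 (0.627 against 134) were lower as well. Gzmb, the granzyme of activated killers, had 0.146 against 68.9, and the pore protein Prf1 had 1.22 against 26.8. Ifng had 6.03 against 52.6. NK cells make these gene products too, and the NK markers of the T-cell library stand beside each of these values.

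Gzmm and Gzmk were higher. Gzmm had 73.6 in AUL and 13.04 in T cells, 5.65-fold higher (5.14 to 6.22), and Gzmk had 107 and 26.2, 4.07-fold higher (3.80 to 4.36). Gzma had 159 and 97.2, within 2-fold. Nkg7, a granule protein of killer cells, was lower at 156 against 533 (-1.76). Il2rb, the receptor chain shared by interleukin-2 and interleukin-15, had 207 and 358, and the chemokine receptor Cxcr3 had 37.4 and 61.7. The AUL thus held Gzma, Gzmk, Gzmm, Eomes, Tbx21 and Il2rb transcripts together, beside Gzmb and Prf1 at 0.146 and 1.22. Of the 14 NK marker genes, 7 had 0 fragments in AUL, Ncr1, Klra1 and Klra7 among them, and 9 had 3 fragments or fewer. Klrc1 (NKG2A), an inhibitory receptor of NK cells and some T cells, had 13.3 against 87.2 and made up most of the list's summed level of 17.2 in AUL.

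NK receptor genes were all lower (14 of 14, median -4.36, -6.62 with a pseudocount of 0.1, or -4.31 with genes at 0 fragments set to a floor of 3). The share lower over all genes tested was 25.8%. Klrk1 (NKG2D) had 0.0510 against 134, and Klrd1 (CD94) had 1.76 against 253. Klra7 had 0 fragments in AUL and 99.9 in T cells, at least 1166-fold lower. The Klra genes are near-copies of one another, so single members are uncertain.

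Among inhibitory and activation receptors Pdcd1 stood apart. Of 21 measured, 14 were lower, 4 within 2-fold and 3 higher (median -2.09). Shares over all genes tested were 25.8%, 54.5% and 19.7%. Pdcd1, which encodes the inhibitory receptor PD-1 (chromosome 1, 94038305 to 94052553, mm10), had 289 in AUL and 5.35 in T cells, 54.00-fold higher (48.8 to 59.9). It had 72.1 in T-ALL and 0.221 in lineage-negative cells. Nr4a1, a nuclear receptor induced by receptor signals, had 181 against 68.4 (1.39), and its relative Nr4a2 had 37.1 against 14.9 (1.26). Tigit lay within 2-fold (37.2 and 20.7). Ctla4 (0.904 against 48.7), Lag3 (2.87 against 15.5) and Btla (1.997 against 27.01) were lower, so the inhibitory receptors did not move as a group. Cd69, an early activation marker, had 13.4 against 247, and Cd44 had 10.5 against 44.03.

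Genes of specialised T-cell subsets were mostly low. Among all genes tested 25.8% were lower and 19.7% higher. Of 11 regulatory T-cell genes 10 were lower (median -2.48), with Foxp3 at 0.0399 (3 fragments) against 12.8 and Il2ra at 0.0299 against 15.2. Ikzf2 (Helios) was the exception at 64.02 and 80.5. Of 13 genes of innate-like T and innate lymphoid cells 12 were lower (median -2.73). Among them were Rora (0.149 against 15.8) and the PLZF gene Zbtb16 (0.310 against 3.98). Sox4, a factor active in progenitors and thymocytes, was higher (40.2 against 11.9, 1.68). Of 7 follicular helper genes 3 were higher and 2 lower (median 0.35): Angptl2, Tox2 and Sh2d1a were higher, Il4 and Pou2af1 lower, and Cxcr5, the follicle-homing receptor, had 17.3 and 13.3. Pou2af1 is also a B-cell gene.

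Thymocyte and Notch-linked genes gave no single stage. Of 16 tested, 11 were lower, 3 within 2-fold and 2 higher (median -2.47). Shares over all genes tested were 25.8%, 54.5% and 19.7%. Notch1 had 47.5 against 155 (-1.69) and its target Dtx1 had 4.89 against 74.6 (-3.68). The recombinase gene Rag1 had 0.0134 against 12.9 and Dntt, the polymerase that diversifies receptor joints, had 0.0846 against 6.67; both are also made by B-cell precursors, whose markers the T-cell library held. Cd24a, high on immature thymocytes, lay within 2-fold (273 and 154, 0.82). Endou, an endoribonuclease gene (chromosome 15, 97711019 to 97731405, mm10), had 113 in AUL against 2.07, 54.9-fold higher (46.6 to 65.5). It had 2.16 in T-ALL. Notch3 was higher at low levels (3.40 against 0.178). The pre-T receptor gene Ptcra is not in the table used here.

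Most cytokine and migration receptor genes were lower in AUL, and the rest lay within 2-fold. Among all genes tested 25.8% were lower and 19.7% higher. Of 23 cytokine receptor genes 16 were lower and none was higher (median -1.27). The common gamma chain Il2rg had 70.3 against 214 (-1.59), whereas the interferon-gamma receptor chain Ifngr1 had 389.6 and 343. Il4ra had 15.9 against 88.6 and Tgfbr2 had 6.60 against 48.9. Of 24 integrin and chemokine receptor genes 14 were lower and none was higher (median -1.24). Itgb1 had 332 and 176, Itgb7 had 443 and 422, and Cxcr4, which retains cells in bone marrow, had 160.5 and 272. Cxcr6 (0.233 against 30.4) and Ccr9 (0.0624 against 14.2) were lower.

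**Figure D4:**
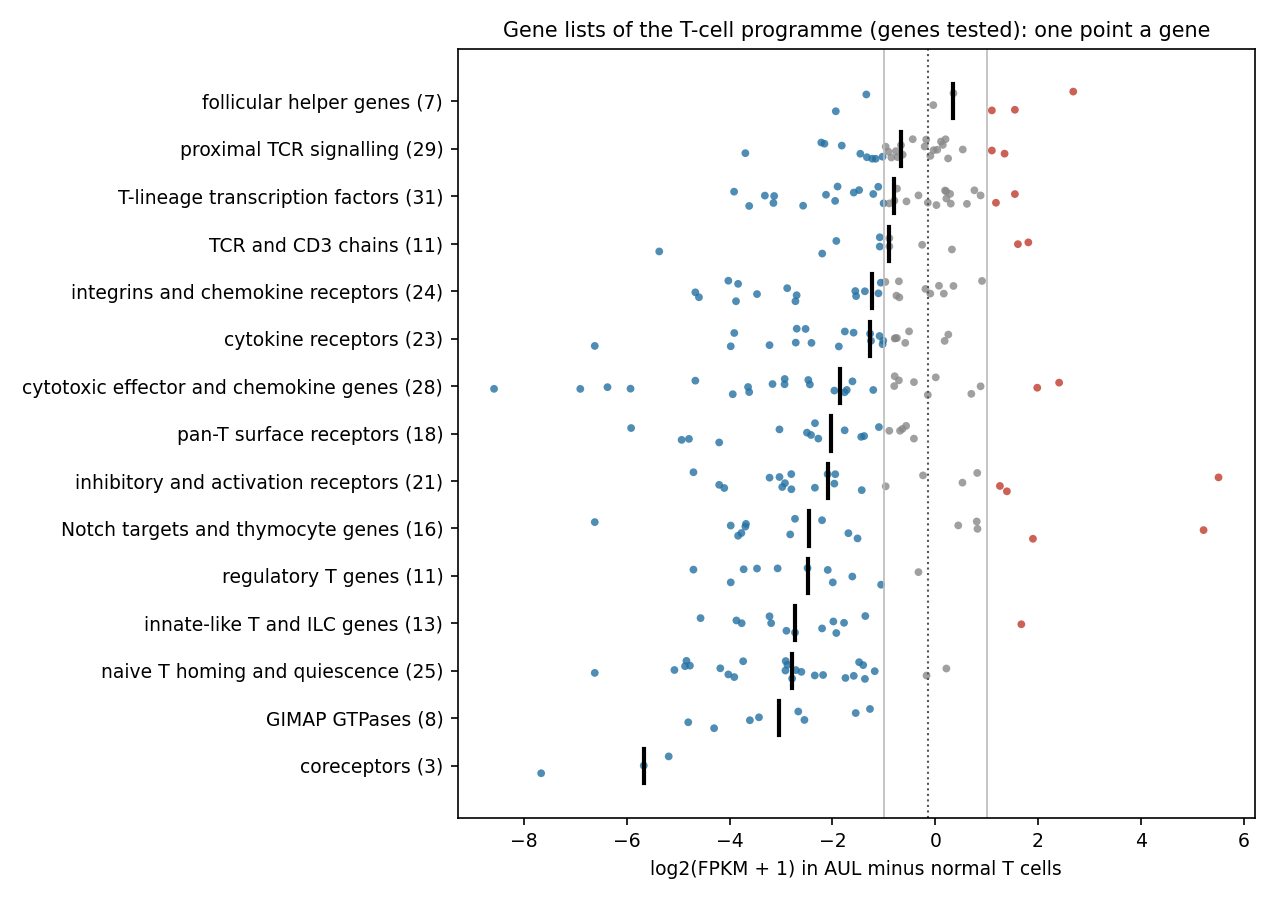
Log2(FPKM + 1) in AUL minus normal T cells for each gene of 15 T-cell lists, with the number of genes tested in brackets. Each point is a gene (red at least 2-fold higher, blue at least 2-fold lower, grey in between), black bars are list medians and the dotted line is the median of all genes tested (-0.15); proximal signalling and transcription factor lists straddle the grey band, and coreceptors, GIMAP and homing genes lie to its left.

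A wider view took genes by their pattern in the normal libraries alone. There were 349 genes with an FPKM of at least 5 in T cells and at least 4 times the level of each of the B-cell, myeloid and lineage-negative libraries. In AUL 106 of them (30.4%) were at 50% or more of the T-cell level, 100 (28.7%) between 10% and 50%, and 143 (41.0%) at 10% or less. Among all 6770 genes with an FPKM of at least 5 in T cells, 69.9% were at 50% or more and 8.46% at 10% or less. Genes chosen for a high value in the T-cell library will tend to be lower in any other library, and nothing is read from the gap between these shares. Receptor and immunoglobulin segments and constant genes made up 91 of the 349. Without them, 92 of 258 (35.7%) were at 50% or more and 82 (31.8%) at 10% or less. Just inside the 4-fold line were D930028M14Rik (4.004), Bspry (4.02) and Gbp8 (4.03), and just outside it Gm12191, Fndc10 (both 3.98) and Gimap7 (3.96).

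Genes on the fixed T-cell lists made up 79 of the 349. In AUL 33 of these 79 were at 50% or more, 20 between, and 26 at 10% or less. Above the T-cell level were 16 of them, Lck, Zap70, Tcf7, Trat1, Gzmk and Pdcd1 among them. A further 154 were named genes on no T-cell list, of which 57 were at 50% or more and 47 at 10% or less. Genes near the T-cell level and genes far below it were thus both found among the 349, on the lists and off them.

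Of the genes listed, replication, mitotic, nucleolar and most MYC-linked metabolic genes were higher in AUL, beside 19.7% of all genes tested. The listed ribosomal protein genes lay within 2-fold. Mycn, the gene of the study (chromosome 12, 12936096 to 12941914, mm10), had 719 in AUL and 0.594 in T cells, 1212-fold higher (899.7 to 1675). Whether the AUL value holds introduced transcripts, endogenous ones or both cannot be told from a gene total. Myc, a relative of Mycn, had 0.907 and 98.2, 108-fold lower (82.4 to 145). All 30 replication genes were higher (median 2.28), led by Mcm10 (56.9 against 4.91) and Cdc6 (42.6 against 4.15), which load and start the replication helicase. Of 27 mitotic genes 26 were higher (median 2.32), such as the spindle checkpoint kinase Ttk (30.96 against 2.56) and cyclin B1 (Ccnb1, 90.2 against 9.45). The exception was Cenpa, at 96.98 against 55.9 (0.78).

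Of 28 nucleolar ribosome biogenesis genes 25 were higher and none was lower (median 1.42), including nucleophosmin (Npm1, 3045 against 614) and Nop16 (117 against 27.4). Of 28 genes on the MYC-linked metabolic list 22 were higher (median 1.90), with Psat1 of serine synthesis at 297 against 35.6. The glucose transporter gene Slc2a1 was the 1 that was lower (12.3 against 29.98). The 24 cytosolic ribosomal protein genes all lay within 2-fold (median 0.03). Transcripts for making ribosomes were thus higher, and those for the ribosomal proteins themselves were near the T-cell level.

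Brakes and survival genes were mixed. Cdkn1b (p27), an inhibitor that keeps T cells out of cycle, had 14.2 against 113 (-2.90). Cdkn2a, Cdkn1a, Cdkn2c and Sesn2 were higher, with Cdkn2a at 12.1 against 0.835. Of 14 cell-cycle inhibitor and p53 genes 4 were higher and 3 lower (median 0.25). Both counts are near the shares over all genes tested (19.7% and 25.8%). Bcl2, the survival gene of resting T cells, had 0.554 against 88.4, 159.6-fold lower (130.3 to 198). Bcl2l1 (7.81 against 37.4) and Mcl1 (144 against 319.7) were lower too, as was the death-promoting member Bmf (0.963 against 17.9). The other death-promoting member named, Bax, lay within 2-fold (202 and 130.2). Of 11 BCL2-family genes none was higher and 4 were lower, beside 19.7% higher and 25.8% lower over all genes tested. Of 10 transcription factors that can act as T-ALL oncogenes, Lmo1 was higher (47.2 against 1.42, 33.2-fold, 25.2 to 44.6) and 8 were lower, among them Lmo2 (2.18 against 21.9) and Lyl1 (2.22 against 18.1). Their median was -1.34, or -2.71 with a pseudocount of 0.1. None of the 10 was left after dropping genes that another normal library held at 4 or more times the T-cell level. Of 17 stem and progenitor genes 15 were lower in AUL (median -1.44). That median was -2.97 with a pseudocount of 0.1, -2.45 over genes with an FPKM of at least 5, and -5.16 after dropping genes that another normal library held at 4 or more times the T-cell level; Gata2, at 0.473 against 51.8, is also a basophil and mast cell gene.

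Interferon response genes and MHC class I genes were mostly lower in AUL, beside 25.8% of all genes tested. Of 35 interferon genes 32 were lower and none was higher (median -2.20, or -2.18 with Mx2, at 0 fragments, set to the floor). Zbp1, a sensor of viral nucleic acid, had 1.40 in AUL and 48.4 in T cells, Usp18 had 0.468 and 24.98, and the ubiquitin-like modifier Isg15 had 1.21 and 23.3. Ifit3, which acts with other IFIT proteins on viral RNA, had 0.271 and 15.2. Irf7, the factor that amplifies the response, had 6.03 and 77.4. Of 14 MHC class I and peptide loading genes 13 were lower (median -2.33), such as H2-Q6 (56.9 against 542) and H2-T23 (39.8 against 284). H2 genes share long stretches of sequence, and single members are uncertain. The summed FPKM of the 14 was 2753 in AUL, 12793 in T cells, 5278 in lineage-negative cells and 2333 in T-ALL.

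Promoters of 26 of the 36 listed interferon genes were at hand, from RefSeq on GRCm38.p6, each running from 250 bases before the gene start to 50 after. The letters GAAA, any 2 bases and GAAA again, the core of the interferon-stimulated response element, were searched on both strands. They occurred in 16 of 26 (61.5%), against 284 of 6734 promoters of tested genes (4.22%) and 1079 of 27025 promoters of all genes (3.99%). They also occurred in 3 of the 14 promoters at hand for the MHC class I list (21.4%). The promoters of Isg15 (chr4:156200769-156201068, minus strand, 3 overlapping matches) and Ifit3 (chr19:34583279-34583578, plus strand, 2 matches on the opposite strand) are shown because these genes are among the 6 largest differences of the list. Capitals mark the matched bases, and a match is a description of the letters and not of binding.
Isg15: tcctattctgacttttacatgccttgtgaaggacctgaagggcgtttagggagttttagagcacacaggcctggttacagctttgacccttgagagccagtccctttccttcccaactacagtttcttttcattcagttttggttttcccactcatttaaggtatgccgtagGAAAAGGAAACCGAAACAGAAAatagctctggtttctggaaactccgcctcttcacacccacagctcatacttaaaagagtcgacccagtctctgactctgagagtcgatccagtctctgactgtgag
Ifit3: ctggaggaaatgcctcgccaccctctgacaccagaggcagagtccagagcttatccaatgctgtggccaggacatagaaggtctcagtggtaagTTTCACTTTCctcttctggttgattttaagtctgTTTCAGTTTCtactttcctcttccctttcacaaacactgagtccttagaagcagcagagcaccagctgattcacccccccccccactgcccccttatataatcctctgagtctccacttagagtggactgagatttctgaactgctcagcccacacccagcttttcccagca

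The letters CACGTG, the E-box bound by MYC and MAX, were searched in the same way. They occurred in 5 of 23 nucleolar genes (21.7%), 5 of 25 MYC-linked metabolic genes (20.0%) and 1 of 22 mitotic genes (4.55%). The share was 12% for promoters of tested genes and 8.09% for all. Because the metabolic list was drawn up for a link to MYC, nothing is read from its share. The promoter of Nop2 (chr6:125131633-125131932, plus strand), a nucleolar methyltransferase gene with 115 FPKM in AUL and 34.3 in T cells, holds 1 match and was picked because it has the widest difference among nucleolar genes with a match.
Nop2: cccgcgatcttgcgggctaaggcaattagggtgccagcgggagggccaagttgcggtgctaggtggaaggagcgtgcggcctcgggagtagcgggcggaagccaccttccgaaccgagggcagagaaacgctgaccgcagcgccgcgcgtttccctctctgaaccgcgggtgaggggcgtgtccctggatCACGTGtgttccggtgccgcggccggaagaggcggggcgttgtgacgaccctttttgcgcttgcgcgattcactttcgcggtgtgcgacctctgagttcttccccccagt

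Immediate early genes and NF-kB pathway genes were mostly lower as well, again beside 25.8% of all genes tested. Of 28 immediate early genes, which many stimuli induce within minutes, 23 were lower and 3 higher (median -2.26). Jun had 10.5 against 388 (-5.08), Jund had 18.3 against 208 (-3.44) and Rgs1, a regulator of G-protein signals, had 0.472 against 76.5 (-5.72). The 3 that were higher were Nr4a1, Nr4a2 and Egr3 (21.1 against 9.79, 1.03). Of 14 NF-kB pathway genes 12 were lower and none was higher (median -2.10), with the feedback inhibitor Tnfaip3 at 42.4 against 357 and Traf1 at 10.3 against 108.

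**Figure D5:**
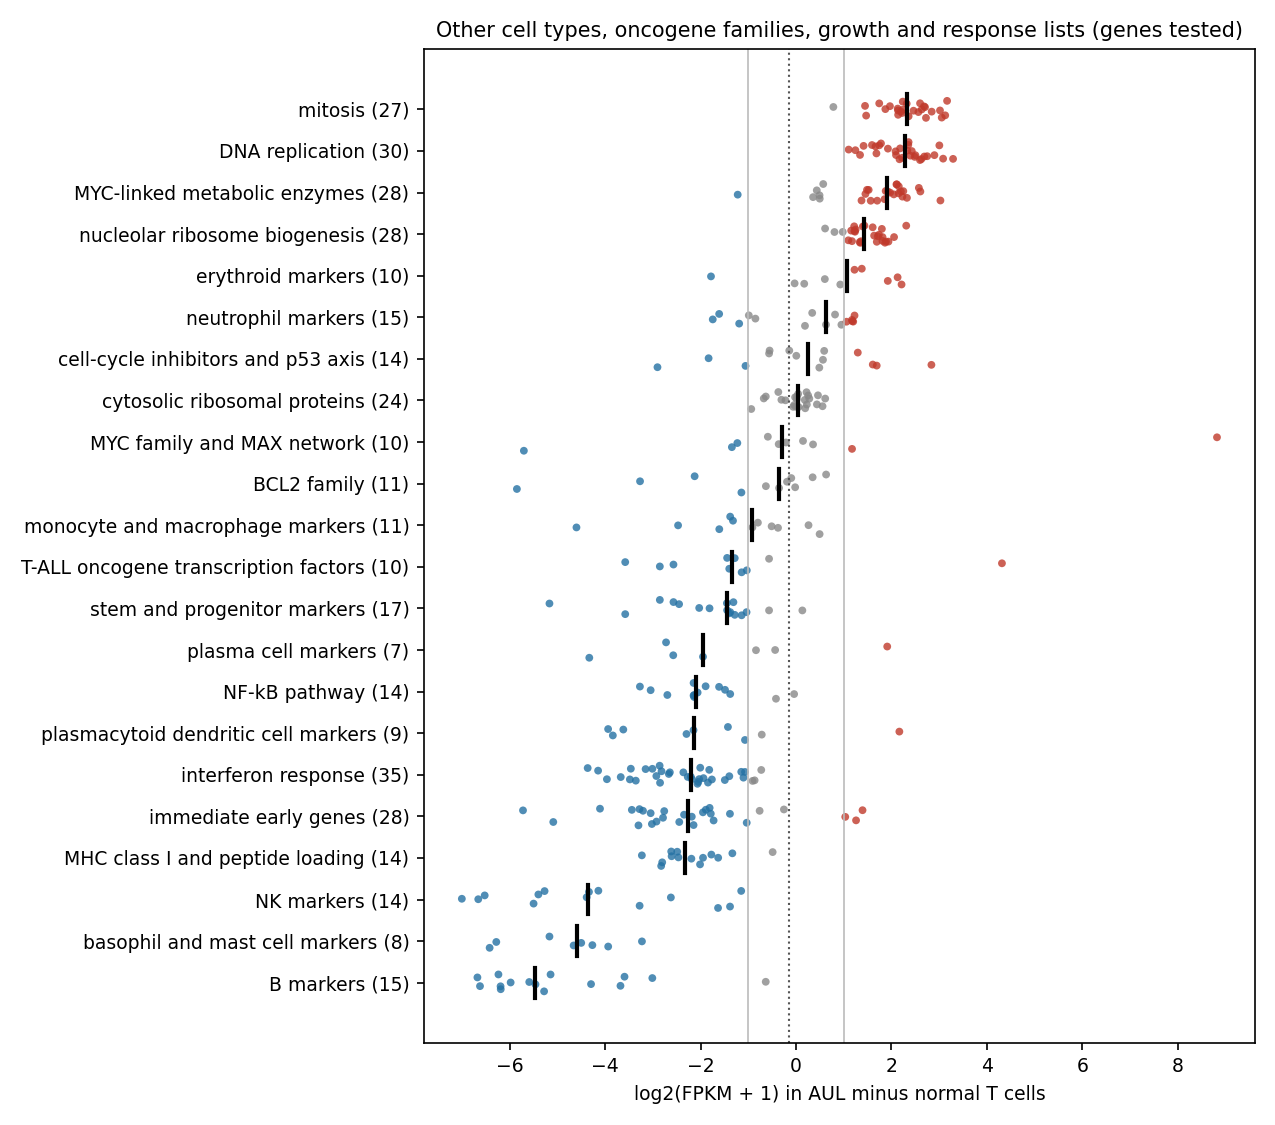
Log2(FPKM + 1) in AUL minus normal T cells for each gene of 22 lists of other cell types, oncogene families, growth and response genes, drawn as in the plot of T-cell lists. Replication, mitosis, nucleolar and most MYC-linked metabolic genes lie to the right of the dotted median of all genes (-0.15). Ribosomal protein genes lie on 0, and interferon, MHC class I, immediate early, NK, basophil and B-cell genes lie to the left.

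Across all genes outside the receptor segments and predicted genes, the 15 with the widest differences in each direction among those with an FPKM of at least 10 were listed. Beside Mycn, Pdcd1, Endou and Lmo1, the higher side held the receptor tyrosine kinase gene Ret (chromosome 6, 118151745 to 118197718, mm10), at 85.6 in AUL and 0.451 in T cells, 190.0-fold higher (153 to 239). Ret had 0.153 in T-ALL and 0.632 in lineage-negative cells. The metallothionein gene Mt1 had 212 against 2.86, cyclin D1 (Ccnd1) 61.3 against 1.69, and alkaline phosphatase (Alpl) 133 against 2.93. Wwc1 and Ptpn14, both regulators of the Hippo pathway, had 38.98 and 54.5 in AUL against 0.0577 and 0.469. Bcat1, an enzyme of branched-chain amino acids, had 68.04 against 1.15, and Gsta4, a glutathione transferase, 72.4 against 1.45. Dnph1 (47.1 against 0.977) and Fam81a (34.4 against 0.105) were on the list as well. Rpph1, the RNA of ribonuclease P, had 208 against 9.23. That RNA carries no poly(A) tail, and it had 198 to 226 in the 4 leukaemia libraries and 7.55 to 9.59 in the 4 normal ones, so its level moved with leukaemia and normal; its part in the other results was not tested.

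At the lower end, 8 of the 15 genes are markers of other cells or close to them. Spib (0.499 against 152), Pax5 (0.530 against 149.5) and Fcmr (0.0384 against 88.8) are B-cell genes, and the B-cell library had 1176, 1073 and 578. Mcpt8 (0.726 against 147) and Prss34 (2.80 against 294) are basophil protease genes, at 819 and 1436 in lineage-negative cells. Klrk1, Klrd1 and Klra7 are NK receptor genes, and some T cells make them too. The other 7 were Ccl5, Ccl3, Ccl4, Cd8b1, Il7r, Ifi213, an interferon-inducible gene (0.220 against 103), and Inpp4b, a phosphoinositide phosphatase (0.0291, on 3 fragments, against 94.5). Leaving out every gene that another normal library held at 4 or more times its T-cell level, all 3 coreceptors, 23 homing genes, 8 GIMAP genes and 18 cytotoxic genes were still lower, as were 9 signalling genes, whereas lower inhibitory and activation receptors went from 14 to 8 and higher replication and mitotic genes from 30 to 14 and from 26 to 7, as fewer members were left to test.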

How the data were processed

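Poly(A) RNA was sequenced as read pairs, per the labels' protocols. The authors deposited a table of FPKM values; the submitters' processing notes name STAR, HTSeq, edgeR and mm10, without versions or strand setting. How genes were chosen for that table is not given in the sources used here, so shares refer to its genes only.

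Differences were taken on log2(FPKM + 1) values as deposited, over genes with an FPKM of at least 1 in AUL or T_cell, and counted from 2-fold. With 1 library per group no test was run. FPKM times mean GENCODE vM21 transcript length (16380 genes) gave whole multiples of 1 step per library, to within 0.02 fragments, for 95.1% to 95.9% of values of genes with a single transcript and 80.3% to 82.2% of all values examined. Library totals and fragments per gene come from that step and are approximate where values were not whole multiples. Intervals are 95% count intervals, and folds against 0 fragments use a floor of 3 in that library. Listed genes held 72.2% (AUL) and 72.5% (T_cell) of fragments.

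The 37 gene lists held 657 genes, 628 of them in the table. Members and lists were chosen with earlier results of these data known. Named genes were the 15 highest and 15 lowest differences with an FPKM of at least 10, leaving out receptor and immunoglobulin segments and constant genes (437) and predicted or clone-named genes (4410); any T-list member; up to 6 widest members of other lists with an FPKM of at least 5; Mycn, Myc and gate antigens. Genes that complete a count of 5 or fewer (such as Cenpa, Slc2a1, Sesn2, Mx2 and Egr3), the promoter of Nop2 and the genes of the closing observations were chosen after their values were seen. Some members of the lists are not reported here by name. Code was tested on simulated data and run in Python 3.11.15 with pandas 2.3.3, numpy 2.4.6, scipy 1.17.1 and matplotlib 3.10.9. Alternatives varied the pseudocount, the filter, the scaling and the genes included.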

Additional observations from a re-analysis of the deposited data

How the results depend on the processing

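The median log2 difference over all genes tested (-0.1466) was -0.1682 with a pseudocount of 0.1, -0.0573 with an FPKM of at least 5 in either library, -0.0268 with no filter, -0.1541 under median-ratio scaling, -0.2382 with both libraries scaled to a common FPKM sum, -0.0823 without segments and predicted genes, and -0.1279 after dropping genes that another normal library held at 4 or more times the T-cell level. Over these 7 alternatives, higher genes numbered 1541 to 2418 and lower genes 1911 to 3166. The share of calls that were higher ran from 39.2% to 46.7%, and T-enriched genes at 50% or more of the T-cell level from 85 to 106. Medians of 3 lists changed sign: follicular helper genes with no filter (-0.02), ribosomal proteins with the common sum, and cell-cycle inhibitors after dropping genes higher elsewhere (-0.0668). Medians of 11 of the 37 lists moved by over 1.5 times or changed sign under at least 1 alternative, among them NK markers (-6.62 with a pseudocount of 0.1), stem and progenitor markers (-1.34 to -5.16 over the alternatives) and follicular helper genes (1.10 after dropping genes higher elsewhere). With the common sum 9 of 611 named genes changed sign, Lck and Runx3 among them, all near 0. Without segments and constant genes the receptor and CD3 list had 0 higher and 3 lower members. No paired analysis was possible because each group has 1 library, and no replicate could be left out. An FPKM of 1 at median gene length rests on 52.8 fragments in AUL, so genes near that level carry wide counting error.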

Other observations

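In the table, 19 genes had an FPKM of at least 10 in AUL and under 1 in all 4 normal libraries. They included Wwc1 (39.0), Fam81a (34.4), the matrix protein gene Fbln1 (20.3 against 0.653 in T cells), the smooth muscle actin gene Actg2 (19.98 against 0.829), the desmosome gene Dsp (13.4 against 0.0318) and Il33, which encodes an alarm cytokine of barrier cells (16.5 against 0.0412). Tmsb15a, a beta-thymosin gene, had 11.4 in AUL and 0 fragments in T cells. Another of them was Prdm16, a transcription factor gene active in stem cells, at 11.5 against 0.921. Of the 19, 5 also reached 10 in another leukaemia library: Wwc1 (12.5 in T-ALL), Nkain1 (12.2 in T-ALL), Pls1 (31.3 in T-ALL), Gcsam (34.7 in T-ALL) and Cdkn2a (219.9 in B-ALL). Gcsam, which encodes a signalling adaptor of germinal centre cells, had 11.3 in AUL and 0.137 in T cells.

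In the other direction, 76 genes had an FPKM of at least 10 in T cells and 0 fragments in AUL. Receptor and immunoglobulin segments and constant genes made up 66 of them, 38 of immunoglobulin loci and 27 with T-cell receptor names that begin with Tr. Outside those and 2 predicted genes, 8 were left: Klra7, Klra13-ps, Klra1, Klra6, Klra9, Ncr1, Mir5107 and Slc6a19. So 6 of the 8 are NK receptor genes.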
